A study of Homo sapiens with 4 samples.

Results

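The effect of ZNF521 on the transcriptome of SAG-stimulated DAOY cells was read from a single pair of RNA-seq libraries, ZNF521_SAG against CTL_SAG. DAOY is a cell line established from a human medulloblastoma, a tumour of the cerebellum. The ZNF521_SAG library came from DAOY cells that overexpress ZNF521 and received SAG, a small-molecule agonist of SMO, and the CTL_SAG library came from control DAOY cells that received SAG as well. The other libraries of the study, CTL_DMSO and ZNF521_DMSO, were made from the same kinds of cells with the vehicle DMSO in place of SAG. Every gene with at least 10 raw counts in at least 1 of the SAG libraries was examined, which gave 15140 of the 20363 genes in the deposited table. At the edge of this filter, 174 genes had exactly 10 counts in the deeper covered library and were included, with a median of 7 counts in the other, and 223 genes with 9 counts were left out. According to the study's methods, ZNF521 was delivered with a lentiviral vector, as a human or mouse cDNA, and the transduced cells were sorted for EGFP. The description of the samples calls the controls wild type while a legend gives them the empty vector, so that transduction and ZNF521 cannot be told apart here if the controls were untransduced.

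ZNF521 is a large zinc finger protein of stem and progenitor cells that acts as a transcriptional co-factor and recruits the NuRD chromatin remodelling and deacetylase complex through its amino terminus. It binds and restrains the EBF transcription factors. In the Hedgehog pathway, a ligand such as SHH relieves the inhibition of SMO by the receptor PTCH1, and SMO signalling then spares the GLI transcription factors from the control of SUFU and protein kinase A. GLI1, PTCH1 and HHIP are themselves transcribed in response, so that their mRNA reads the activity of the pathway. Signalling of this kind drives the growth of cerebellar granule neuron progenitors and of a molecular subgroup of medulloblastoma. SAG enters this pathway at SMO, below PTCH1.

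The libraries held 12294833 counts for CTL_SAG and 16314685 for ZNF521_SAG. Levels are given as normalized counts, the raw counts divided by the size factor of each library (0.887 and 1.19 for these 2). With 1 library per condition no difference within this pair has a replicate check, and no p-value can be had for it. Differences are given as log2 ratios with exact 95% intervals that cover counting error only. A gene was called higher or lower when it differed by at least 1.5-fold and its interval excluded 1. Of 10 markers of a neural medulloblastoma line, 8 reached 10 counts, among them NES, SOX2, SOX9, OTX2 and ZIC1, whereas BARHL1 was at 0 and ATOH1 had 1 count in each SAG library. The mesenchymal genes COL1A1, COL1A2, COL3A1 and THY1 were also abundant, and the 7 markers of fibroblasts and mesenchyme summed to 24878 normalized counts in CTL_SAG and 22533 in ZNF521_SAG. Blood markers summed to 11.3 and 13.5, with CD68 and HBA1 at 0 or not listed.

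The transcriptomes of the SAG-treated populations were close to each other. Of the 15140 genes, 209 (1.38%) were called higher in ZNF521_SAG and 176 (1.16%) were called lower, 385 (2.54%) in all. In the 12027 genes whose mean in the SAG pair reached 50 normalized counts, the SD of the log2 ratio was 0.182, the 1st and 99th percentiles were -0.49 and 0.53, and 144 genes (1.2%) were called. In the 3113 genes with a lower mean, 241 (7.74%) were called, on few counts each. For the same 12027 genes the SD was 0.373 in the DMSO pair, in which 749 of 14847 genes (5.04%) were called higher and 920 (6.2%) lower. That pair holds the CTL_DMSO library, which stood apart: over 12094 genes its log2 deviations from the mean of each gene had an SD of 0.291, against 0.148 to 0.165 in the other libraries. Among the 3386 genes with means of 1000 or more in the SAG pair, the SD was 0.111, and ZNF521 and SPOCK1 were the only ones called higher and LOXL1 and WDSUB1 the only ones called lower. At 2-fold, 99 genes were called higher and 69 lower.

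**Figure D1:**
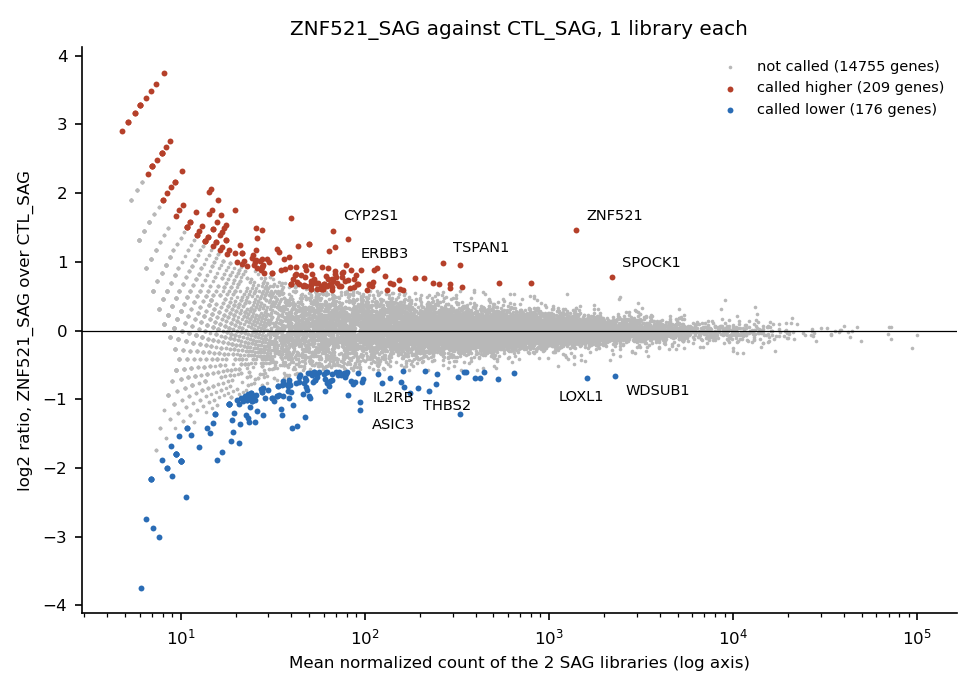
Log2 ratio of ZNF521_SAG over CTL_SAG for each gene (vertical axis) against its mean normalized count in both libraries (horizontal log axis), with genes called higher in red, called lower in blue and the rest in grey. The cloud narrows as counts grow, and ZNF521 at 1.46 is the highest of the genes with a mean of 50 or more. The 1 gene with 0 counts in a library has no finite ratio and is not drawn.

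ZNF521 itself gave the check of the labels. Its mRNA (chromosome 18, 25061924 to 25352190 on hg38, minus strand) had 713.7 normalized counts in CTL_DMSO, 751.1 in CTL_SAG, 2012.7 in ZNF521_DMSO and 2072.1 in ZNF521_SAG. Both ZNF521 libraries lay well above both controls, and SAG left the level of each kind of cells nearly where it was. Under SAG the ratio was 2.76-fold (2.53 to 3.01), or 1.46 on the log2 scale, the highest among the 12027 genes whose mean reached 50. The control cells thus carried ZNF521 mRNA of their own. The counts do not separate the endogenous transcript from that of the vector, and reads of a mouse cDNA would be counted only as far as they align to the human gene.

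The Hedgehog pathway was compared next, since the study asked whether ZNF521 adds to its activity. By RT-qPCR in DAOY cells, the study reported that ZNF521 raised GLI1 and PTCH1 mRNA and reinforced their rise with SAG. GLI1, the transcriptional read-out of the pathway, had 75.4 normalized counts in CTL_DMSO, 323.7 in CTL_SAG, 44.2 in ZNF521_DMSO and 318.1 in ZNF521_SAG. Both SAG libraries were therefore high in GLI1 and close to equal, with a ratio of 0.98 (0.84 to 1.15). PTCH1, the receptor that represses SMO and is induced by GLI proteins, had 468.4, 526.6, 301.5 and 578.8 in the same order, a ratio under SAG of 1.10 (0.98 to 1.24). HHIP, a membrane protein that sequesters the ligand, had 8.0, 54.1, 7.2 and 78.5. It was scarce in both DMSO libraries and was 1.45-fold (1.01 to 2.10) higher in ZNF521_SAG, just short of the 1.5-fold needed for a call. The intervals of GLI1 and PTCH1 leave out a 1.5-fold difference in either direction, so that counting error is not what limits these comparisons. In the DMSO pair, which holds the CTL_DMSO library that stood apart, GLI1 (-0.77) and PTCH1 (-0.64) were called lower in ZNF521 cells.

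The transducers of the signal were likewise near their control levels. SMO had 3197.5, 2500.1, 2671.2 and 2315.9 normalized counts in CTL_DMSO, CTL_SAG, ZNF521_DMSO and ZNF521_SAG, and its log2 ratio under SAG was -0.11 (-0.19 to -0.03). GLI2 was at 160.1 and 158.6 in CTL_SAG and ZNF521_SAG, GLI3 at 652.9 and 652.2, and SUFU at 332.7 and 327.3. In each of these genes CTL_DMSO was the highest of the libraries. None of the 23 GLI factors and cytosolic regulators was called, against 2.54% of all genes. The median log2 ratio of the list was -0.014, against -0.0003 over all genes examined, with 8 genes above 0 and 15 below. The interval excluded 1 on the lower side in 4 and on the higher side in 0, against 10.2% and 9.51% of all genes. Of abundant regulators, CUL1, a scaffold of ubiquitin ligases, was at -0.25 (-0.35 to -0.15), and PRKAR2A, a regulatory subunit of protein kinase A, at -0.21 (-0.30 to -0.12).

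**Figure D2:**
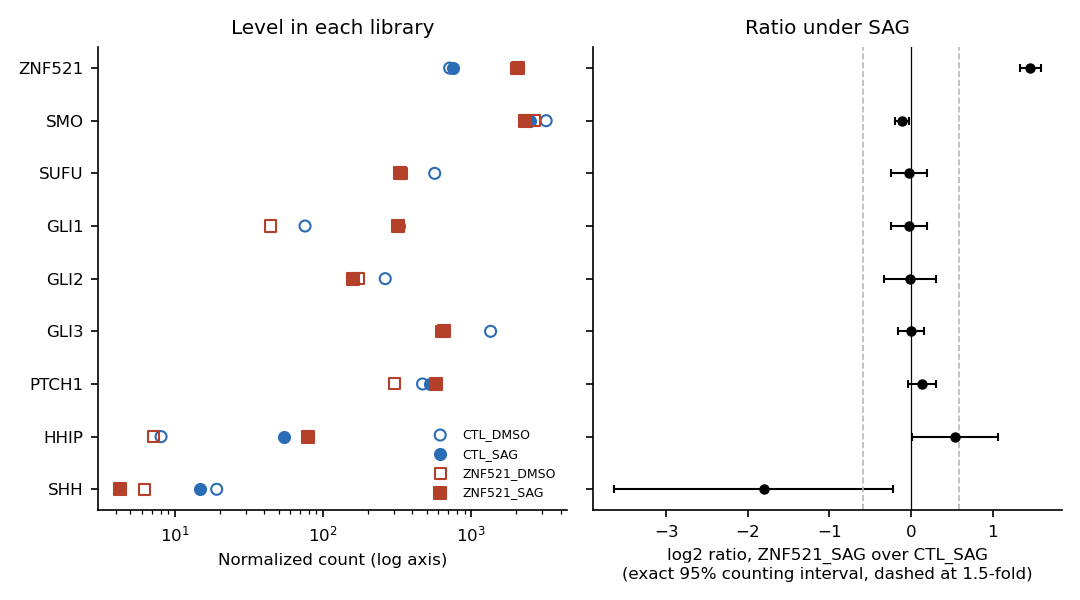
Left, normalized counts (log axis) of ZNF521 and Hedgehog genes in each of the 4 libraries, circles for CTL and squares for ZNF521 cells, open for DMSO and filled for SAG. Right, log2 ratio of ZNF521_SAG over CTL_SAG with exact 95% counting intervals and dashed lines at 1.5-fold. Filled symbols of GLI1, GLI2, GLI3 and SUFU coincide, and the points of ZNF521 and of the scarce SHH transcript are the ones beyond the dashed lines.

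Among ligands, receptors and co-receptors, 1 of 17 genes was called, against 2.54% of all genes. This was SHH, the ligand, with 19.1, 14.7, 6.2 and 4.2 normalized counts in CTL_DMSO, CTL_SAG, ZNF521_DMSO and ZNF521_SAG, a log2 ratio of -1.80 under SAG (-3.64 to -0.22) that rests on 13 and 5 raw counts. Both ZNF521 libraries lay below both controls for this gene. Its mean was below 50 normalized counts, where 7.74% of all genes were called. GAS1, a co-receptor of SHH, was at -0.45 (-0.63 to -0.27) with 603 and 442 normalized counts, whereas the related co-receptor CDON was at 0.32 (0.07 to 0.58) and BOC at -0.06 (-0.13 to 0.02). GPC3, a glypican that binds Hedgehog ligand, was at 0.48 (0.24 to 0.72), and GPR161, a ciliary receptor that restrains the pathway, at 0.18 (0.05 to 0.32). The median of the list was 0.158.

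Of 37 genes listed as Hedgehog targets, none was called in either direction, against 2.54% of all genes. In this list 22 lay above 0 and 15 below, and the median log2 ratio was 0.031. The interval excluded 1 at any size in 8 genes on the higher side, against 9.51% of all genes, and in 1 gene, the WNT inhibitor SFRP1 (-0.25), on the lower side, against 10.2% of all genes. Besides HHIP, the 8 were the adhesion receptor CD44 (0.15), the cell cycle genes CCND2 (0.19) and CDK6 (0.19), the transcription factor ZEB1 (0.17), the polycomb gene BMI1 (0.23), the matrix phosphoprotein gene SPP1 (0.44) and TERT (0.48), the telomerase subunit. CDK6 had 988.1, 1627.3, 1237.9 and 1862.0 normalized counts in CTL_DMSO, CTL_SAG, ZNF521_DMSO and ZNF521_SAG, higher in both SAG libraries than in both DMSO libraries. CCND1 (-0.03), MYCN (-0.20), SOX2 (0.03), SNAI2 (0.03) and FOXM1 (0.04), further targets with roles in proliferation or cell state, had intervals that included 1.

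The partners through which ZNF521 is known to work differed by less than 1.5-fold between the populations. None of 17 NuRD genes was called, against 2.54% of all genes. The abundant subunits CHD3 (0.03), MTA2 (0.03) and KDM1A (-0.06) differed by less than 0.1 on the log2 scale. The interval excluded 1 on the lower side in 5 of the 17 and on the higher side in 0, against 10.2% and 9.51% of all genes. ZNF423, the closest relative of ZNF521, was lower without reaching the fold for a call: 1799.3, 1193.1, 999.1 and 960.1 normalized counts in CTL_DMSO, CTL_SAG, ZNF521_DMSO and ZNF521_SAG, with a log2 ratio under SAG of -0.31 (-0.44 to -0.19). Both ZNF521 libraries lay below both controls. SALL2 (0.19) and BCL11B (0.17), other zinc finger proteins that bind NuRD, and SMAD4 (-0.07) and PARP1 (-0.04), listed with the EBF partners, were not called.

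Among genes with a mean of at least 50 normalized counts in the SAG pair, the leading genes called higher, ranked by the interval bound nearest to 1, were ZNF521, CYP2S1, ERBB3, TSPAN1, GUCY1A2, SPOCK1, SYN3, HSH2D, PCSK1, KCNK10, RGS8, EXPH5, MSI1, FOXA3 and RAB3B. In 12 of these 15 both ZNF521 libraries lay above both controls, an order met in 13.7% of all genes and favoured by the call itself, which uses 2 of the 4 values, and 9 were also called higher in the DMSO pair. TSPAN1, a membrane protein of the tetraspanin family (chromosome 1, 46175073 to 46185962), had 205.1 normalized counts in CTL_DMSO, 178.2 in CTL_SAG, 489.8 in ZNF521_DMSO and 352.7 in ZNF521_SAG, a ratio under SAG of 1.98-fold (1.64 to 2.39). GUCY1A2, a subunit of the nitric oxide receptor soluble guanylate cyclase, had 285.5, 225.5, 476.4 and 437.0, a ratio of 1.94-fold (1.64 to 2.29). ERBB3, a receptor tyrosine kinase for neuregulins, had 75.4, 46.2, 116.3 and 116.4, a ratio of 2.52-fold (1.77 to 3.66). In all 3 the ZNF521 libraries were the higher ones with either treatment.

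Further genes of this group had the same order of libraries. PCSK1, the convertase that cleaves prohormones in secretory granules, had 711.7, 606.7, 1288.3 and 983.7 normalized counts in CTL_DMSO, CTL_SAG, ZNF521_DMSO and ZNF521_SAG, 1.62-fold (1.46 to 1.80) higher under SAG. RAB3B, a small GTPase of synaptic and secretory vesicles, had 155.8, 139.8, 189.3 and 237.1 (1.70-fold, 1.37 to 2.11). EXPH5, an effector of RAB27 in vesicle traffic, had 83.4, 78.9, 130.7 and 146.0 (1.85-fold, 1.39 to 2.48). RGS8, which shortens G protein signals, had 67.3, 81.2, 102.9 and 152.7 (1.88-fold, 1.42 to 2.51). Each of these 4 had both ZNF521 libraries above both controls.

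SPOCK1, which encodes the secreted proteoglycan testican, was the only gene called higher besides ZNF521 among those with a mean of 1000 or more. It had 1763.1 normalized counts in CTL_DMSO, 1618.3 in CTL_SAG, 2033.3 in ZNF521_DMSO and 2774.9 in ZNF521_SAG, 1.71-fold (1.61 to 1.83) higher under SAG and 0.21 on the log2 scale in the DMSO pair. ZNF521_SAG was thus above all the rest. KCNK10, a background potassium channel, showed a different order, with 250.3, 407.1, 380.7 and 660.6: within each treatment the ZNF521 library was higher, and CTL_SAG lay above ZNF521_DMSO. HSH2D, an SH2 adaptor of blood cells, had 68.4, 39.5, 139.9 and 87.7, and FOXA3, a forkhead transcription factor, 72.4, 54.1, 97.8 and 104.6.

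CTL_SAG lay below all the other libraries in most of the leading genes called higher. The same held in 170 of all 209 genes called higher, an order that the call itself favours. CYP2S1, MSI1 and SYN3 were leading genes of this kind whose log2 ratio in the DMSO pair was near or below 0. CYP2S1, a cytochrome P450, had the largest ratio after ZNF521 among genes with a mean of at least 50 (2.74-fold, 1.84 to 4.18), with 118.6 normalized counts in CTL_DMSO, 36.1 in CTL_SAG, 120.4 in ZNF521_DMSO and 98.7 in ZNF521_SAG. The 3 libraries other than CTL_SAG lay between 98.7 and 120.4, and the DMSO pair gave a log2 ratio of 0.02. MSI1, an RNA-binding protein of neural progenitors, had 331.7, 155.6, 229.5 and 263.2, so that it was higher in ZNF521 cells under SAG (0.76) and lower under DMSO (-0.53). SYN3, a synapsin, had 73.4, 41.7, 77.2 and 97.0, with CTL_SAG at the bottom and a log2 ratio of 0.07 in the DMSO pair.

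**Figure D3:**
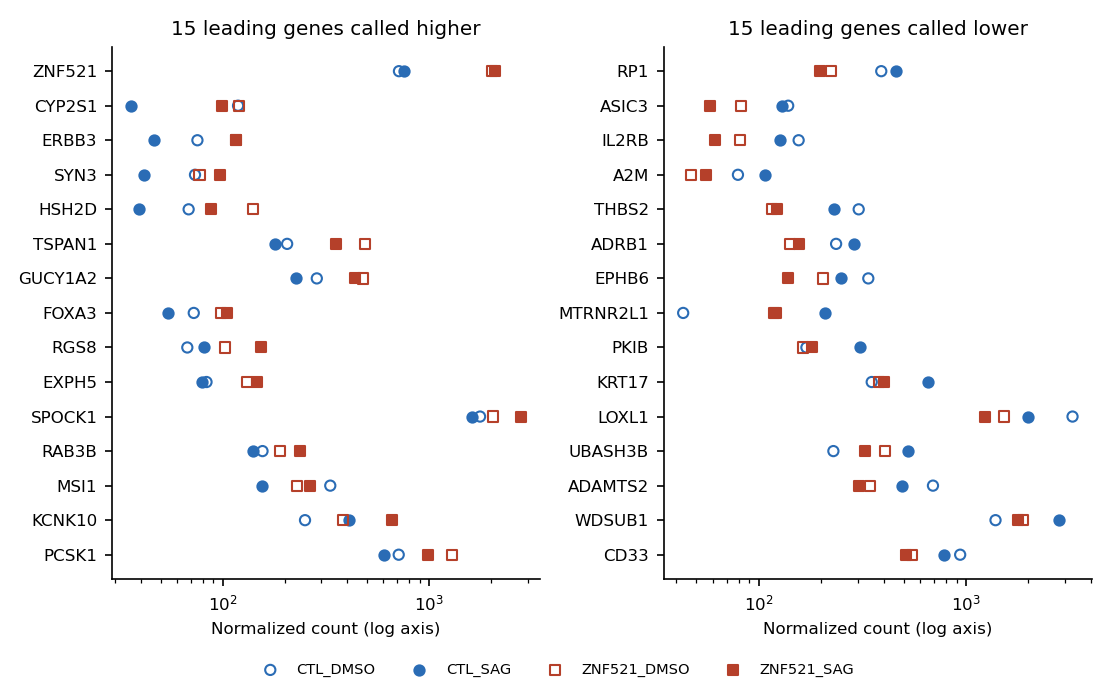
Normalized counts (log axis) of the 15 leading genes called higher (left) and the 15 called lower (right) in ZNF521_SAG, 1 point per library, circles for CTL and squares for ZNF521 cells, open for DMSO and filled for SAG. Most rows separate squares from circles, and CYP2S1, MSI1, KCNK10, KRT17, PKIB, WDSUB1, MTRNR2L1 and UBASH3B do not.

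The leading genes called lower, with the same minimum of 50 for the mean, were RP1, ASIC3, IL2RB, THBS2, ADRB1, LOXL1, WDSUB1, EPHB6, KRT17, PKIB, MTRNR2L1, UBASH3B, ADAMTS2, A2M and CD33. Both ZNF521 libraries lay below both controls in 10 of these 15, against 13% of all genes, and the same number were called lower in the DMSO pair as well. RP1, which encodes a microtubule-associated protein of the photoreceptor cilium, had 390.0 normalized counts in CTL_DMSO, 461.2 in CTL_SAG, 223.3 in ZNF521_DMSO and 198.3 in ZNF521_SAG, 2.33-fold (1.98 to 2.74) lower under SAG. ASIC3, a proton-gated sodium channel, had 138.7, 129.7, 82.3 and 58.2 (2.23-fold lower, 1.64 to 3.05). IL2RB, the beta chain of the interleukin-2 receptor, had 155.8, 126.3, 81.3 and 61.6 (2.05-fold lower, 1.51 to 2.79). The order of the libraries was the same in kind for all 3, with the controls above and the ZNF521 cells below.

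Receptors of the cell surface and a secreted protein were further members. ADRB1, the beta-1 adrenergic receptor, had 236.2, 287.6, 142.0 and 156.9 normalized counts in CTL_DMSO, CTL_SAG, ZNF521_DMSO and ZNF521_SAG (1.83-fold lower under SAG, 1.51 to 2.23). EPHB6, an ephrin receptor without kinase activity, had 337.7, 249.2, 204.8 and 139.2 (1.79-fold lower, 1.46 to 2.20). CD33, a sialic acid-binding lectin best known from myeloid cells, had 936.8, 786.0, 547.4 and 513.8 (1.53-fold lower, 1.37 to 1.71). A2M, a secreted protease trap, had 79.4, 107.1, 47.3 and 55.7. In each of these 4 genes no ZNF521 library reached the level of a control.

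The remaining leading genes had another order of libraries. WDSUB1, a WD repeat protein with a U-box, had 1387.2, 2818.1, 1880.0 and 1780.2 normalized counts in CTL_DMSO, CTL_SAG, ZNF521_DMSO and ZNF521_SAG, and KRT17, a keratin, had 350.8, 655.2, 379.7 and 403.3. PKIB, an inhibitor of protein kinase A, had 169.9, 309.0, 163.6 and 180.5. CTL_SAG was the high library in each, and the DMSO pair gave 0.44, 0.11 and -0.05 on the log2 scale. MTRNR2L1, whose sequence is a near copy of mitochondrial ribosomal RNA and whose counts are therefore uncertain, also had CTL_SAG as its highest library, as did UBASH3B, a tyrosine phosphatase.

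Genes of neurons and their synapses were called higher more often than lower. Of 53 examined, 6 were called higher and 0 lower, against 1.38% of all genes called higher, and the median log2 ratio was 0.176. The 6 were PCSK1 (0.70) and PCSK2 (2.17), both prohormone convertases, SCG3 (0.87) and CHGB (0.72), granins of dense-core secretory granules, NLGN3 (1.32), a synaptic adhesion molecule, and GRIN2D (0.68), an NMDA receptor subunit. PCSK1, PCSK2, SCG3 and CHGB are known from the secretory granule rather than from the synapse. PCSK2, NLGN3 and GRIN2D had a mean below 50, where 7.74% of all genes were called. SCG3 had 88.5, 48.5, 73.1 and 88.6 normalized counts in CTL_DMSO, CTL_SAG, ZNF521_DMSO and ZNF521_SAG, and CHGB had 41.2, 38.3, 38.1 and 63.3. PCSK1 was the only one of the 6 with more than 100 normalized counts in a library and the only one also called in the DMSO pair, where PCSK2, NLGN3, SCG3, CHGB and GRIN2D were at -0.64, -0.68, -0.28, -0.11 and -0.47. The 5 neuronal cell type markers summed to 421.8 normalized counts in CTL_SAG and 524.8 in ZNF521_SAG. SLC17A7 (1.0) was called, on 15 and 40 raw counts, and RBFOX3, SYP, SNAP25 and GAD1 were not. In the DMSO pair SLC17A7 was called lower (-1.58), and CTL_DMSO was its highest library at 98.5 normalized counts. The part of such cells in the result was not tested.

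Ion channels showed a similar balance. Of 68 potassium, sodium and calcium channel genes, 6 were called higher, among them KCNT1 (1.90), SCN3A (0.74), KCNK10 (0.70), CACNB2 (0.65) and KCNK2 (0.60), and 1 was called lower, the inward rectifier KCNJ2 (-0.76). The median was 0.097, and over all genes 1.38% were called higher and 1.16% lower. KCNT1 had 3 and 15 raw counts, so that its ratio has a wide interval (0.08 to 4.33). KCNT1 and KCNJ2 had a mean below 50 normalized counts, where 7.74% of all genes were called. SCN3A, a sodium channel of the developing brain, had 65.3, 47.4, 74.1 and 79.3 normalized counts in CTL_DMSO, CTL_SAG, ZNF521_DMSO and ZNF521_SAG, with the ZNF521 libraries at the top.

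Genes of the extracellular matrix were called in both directions. LOXL1, an elastin-crosslinking oxidase (chromosome 15, 73925989 to 73952137), had 3262.9 normalized counts in CTL_DMSO, 2000.5 in CTL_SAG, 1530.1 in ZNF521_DMSO and 1239.4 in ZNF521_SAG, 1.61-fold (1.51 to 1.73) lower under SAG. ADAMTS2, the protease that trims the amino end of procollagens, had 692.6, 491.7, 344.7 and 305.4 (1.61-fold lower, 1.40 to 1.86). THBS2, a thrombospondin of the matrix, had 303.6, 230.1, 116.3 and 122.3 (1.88-fold lower, 1.51 to 2.34). MFAP4, a protein of elastic fibres, had 203.0, 192.8, 118.3 and 128.2 and was at -0.59 (-0.91 to -0.26), at the limit of a call. All 4 were below both controls in both ZNF521 libraries and were called lower in the DMSO pair too.

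Most members of their families were not called. Over all genes 1.38% were called higher and 1.16% lower, the shares to set beside the calls that follow. LOXL1 and ADAMTS2 were the 2 genes called among 22 of matrix crosslinking and collagen processing, whose median was -0.031, and THBS2 and MFAP4 were called lower and TNXB (0.80) higher among 33 matrix glycoproteins, with a median of -0.048. Of 36 collagen chains only COL17A1 was called, higher at 0.65 (0.02 to 1.30), and the fibrillar COL1A1 (0.11), COL1A2 (0.01) and COL3A1 (-0.33) stayed within 1.5-fold. At any size the interval excluded 1 on the lower side in 6 of the 22 crosslinking genes, 8 of the 33 glycoproteins and 7 of the 36 collagens, against 10.2% of all genes, and on the higher side in 4, 8 and 6, against 9.51%. Both ZNF521 libraries lay below both controls in 9, 12 and 11 of them, against 13% of all genes, and above in 0, 4 and 5, against 13.7%. In the DMSO pair, which holds the CTL_DMSO library that stood apart, the medians of these lists were -0.34, -0.34 and -0.49, and the part of that library in the order was not tested. LAMA3 (0.68), a laminin chain of epithelia, was the gene called among 15 laminins and basement membrane genes. Proteoglycans SPOCK1 and BCAN (0.69) were called higher of 13, and the protease MMP7 (-1.0) and the inhibitor TIMP4 (-0.82) lower of 42. COL17A1, MMP7 and TIMP4 had a mean below 50 normalized counts, where 7.74% of all genes were called. PDGFRB, the mesenchymal receptor, was at -0.58 (-0.78 to -0.38) with 488.3 and 326.5 normalized counts, just outside the call.

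Receptor tyrosine kinases split evenly. Of 36 members of the list, ERBB3 and the VEGF receptor FLT1 (0.68) were called higher, against 1.38% of all genes. CSF1R (-1.17), the receptor of macrophage colony-stimulating factor, and LTK (-0.75) were called lower, against 1.16%. CSF1R rests on 32 and 19 raw counts and had a mean below 50, where 7.74% of all genes were called. FLT1 had 248.3, 224.4, 359.1 and 359.4 normalized counts in CTL_DMSO, CTL_SAG, ZNF521_DMSO and ZNF521_SAG, and LTK had 143.7, 110.5, 86.4 and 65.8. Both genes separated the ZNF521 cells from the controls. ACVR1, a receptor of BMPs and activins, had the lowest ratio not called among genes with a mean of 1000 or more, with 2231.5, 1319.4, 794.4 and 926.4 and a log2 ratio of -0.51 (-0.63 to -0.39). None of the 14 receptors of the BMP, activin and TGF-beta family was called, against 2.54% of all genes, and their median was 0.170. None of 18 BMP and TGF-beta response genes was called either, with a median of -0.098, ID3 at -0.26 (-0.32 to -0.20) and ID1 at -0.13 (-0.22 to -0.05).

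In the WNT pathway SP5 (1.23) and APCDD1 (1.10) were called higher and LGR5 (-2.42) and SFRP5 (-0.72) lower, of 46 genes. All 4 had fewer than 50 raw counts in each SAG library and a mean below 50 normalized counts, where 7.74% of all genes were called. LGR5, a stem cell receptor for R-spondins, rests on 16 and 4. In the Notch pathway only NOTCH3 was called, at 0.62 (0.37 to 0.87), of 25 genes. Among cadherins PCDH8 (1.12) and CDH3 (0.77) were called higher of 28, with 23 of the 28 above 0, and among integrins ITGA10 (0.92) was called higher and ITGB7 (-1.42) lower of 20. NR0B1, a nuclear receptor without a DNA-binding domain (called DAX1), had 50.3, 59.8, 149.2 and 109.7 normalized counts in CTL_DMSO, CTL_SAG, ZNF521_DMSO and ZNF521_SAG and was 0.88 (0.40 to 1.37) higher under SAG. ESR1 (1.51), an oestrogen receptor with 5 and 19 raw counts, was the other nuclear receptor called, of 40. PCDH8, ITGA10, ITGB7 and ESR1 had a mean below 50, where 7.74% of all genes were called. Over all genes 1.38% were called higher and 1.16% lower.

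Of 47 genes listed as interleukins, chemokines and NF-kB targets, 4 were called higher and 1 lower, against 1.38% and 1.16% of all genes. IL6 had 19.1, 21.4, 43.2 and 47.2 normalized counts in CTL_DMSO, CTL_SAG, ZNF521_DMSO and ZNF521_SAG, a log2 ratio under SAG of 1.14 (0.37 to 1.97). The chemokines CCL20 (0.95) and CCL7 (0.60) and the alarmin IL33 (1.51) were the others called higher, and IL2RB was the gene called lower. In IL6, CCL20, CCL7 and IL33 both ZNF521 libraries lay above both controls, at levels of at most 70.0. IL6, CCL20 and IL33 had a mean below 50, where 7.74% of all genes were called. The rest of the list leaned the other way, with 32 of 47 genes below 0 and a median of -0.067. PCK1, the enzyme that commits carbon to gluconeogenesis, had 27.1, 19.2, 135.8 and 59.9 (log2 ratio 1.64, 0.86 to 2.50), and the stress-induced cytokine GDF15 had 134.7, 104.9, 203.7 and 169.6 (0.69, 0.33 to 1.06).

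Some families of abundant genes were shifted a little in 1 direction without any member reaching 1.5-fold. Of 54 interferon-stimulated genes 0 were called, against 2.54% of all genes, yet 43 lay above 0 and the median log2 ratio was 0.128. The interval excluded 1 on the higher side in 29 and on the lower side in 6, against 9.51% and 10.2% of all genes. OAS2, a sensor that makes oligoadenylate, was at 0.47 (0.38 to 0.55), IFI6 at 0.44 (0.40 to 0.49) and the antiviral GTPase MX1 at 0.35 (0.31 to 0.38). MX1 had 11922.6, 11621.0, 17194.3 and 14804.0 normalized counts in CTL_DMSO, CTL_SAG, ZNF521_DMSO and ZNF521_SAG, and ISG15, a ubiquitin-like modifier, had 12237.2, 12419.4, 19833.7 and 14750.9. In 33 of the 54 genes both ZNF521 libraries lay above both controls, and in 2 below, against 13.7% and 13% of all genes. Those on the lower side included GBP1 (-0.23), GBP2 (-0.21) and IRF1 (-0.18), genes that interferon gamma induces. These OAS2, IFI6, GBP1, GBP2 and IRF1 values were singled out after they were seen.

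Sterol genes leaned lower. Of 36 genes of cholesterol and lipid synthesis 29 lay below 0, and the median was -0.120, the lowest of the 53 lists with a member. The interval excluded 1 on the lower side in 20 and on the higher side in 2, against 10.2% and 9.51% of all genes. A single gene of the list was called, on the lower side, against 1.16% of all genes. INSIG1 (-0.31, -0.39 to -0.24), HMGCS1 (-0.27, -0.37 to -0.18), LSS (-0.25, -0.32 to -0.19) and DHCR7 (-0.26, -0.34 to -0.18), chosen after their values were seen, were lower by less than 1.5-fold. In 13 of the 36 both ZNF521 libraries lay below both controls, and in 3 above, against 13% and 13.7% of all genes.

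**Figure D4:**
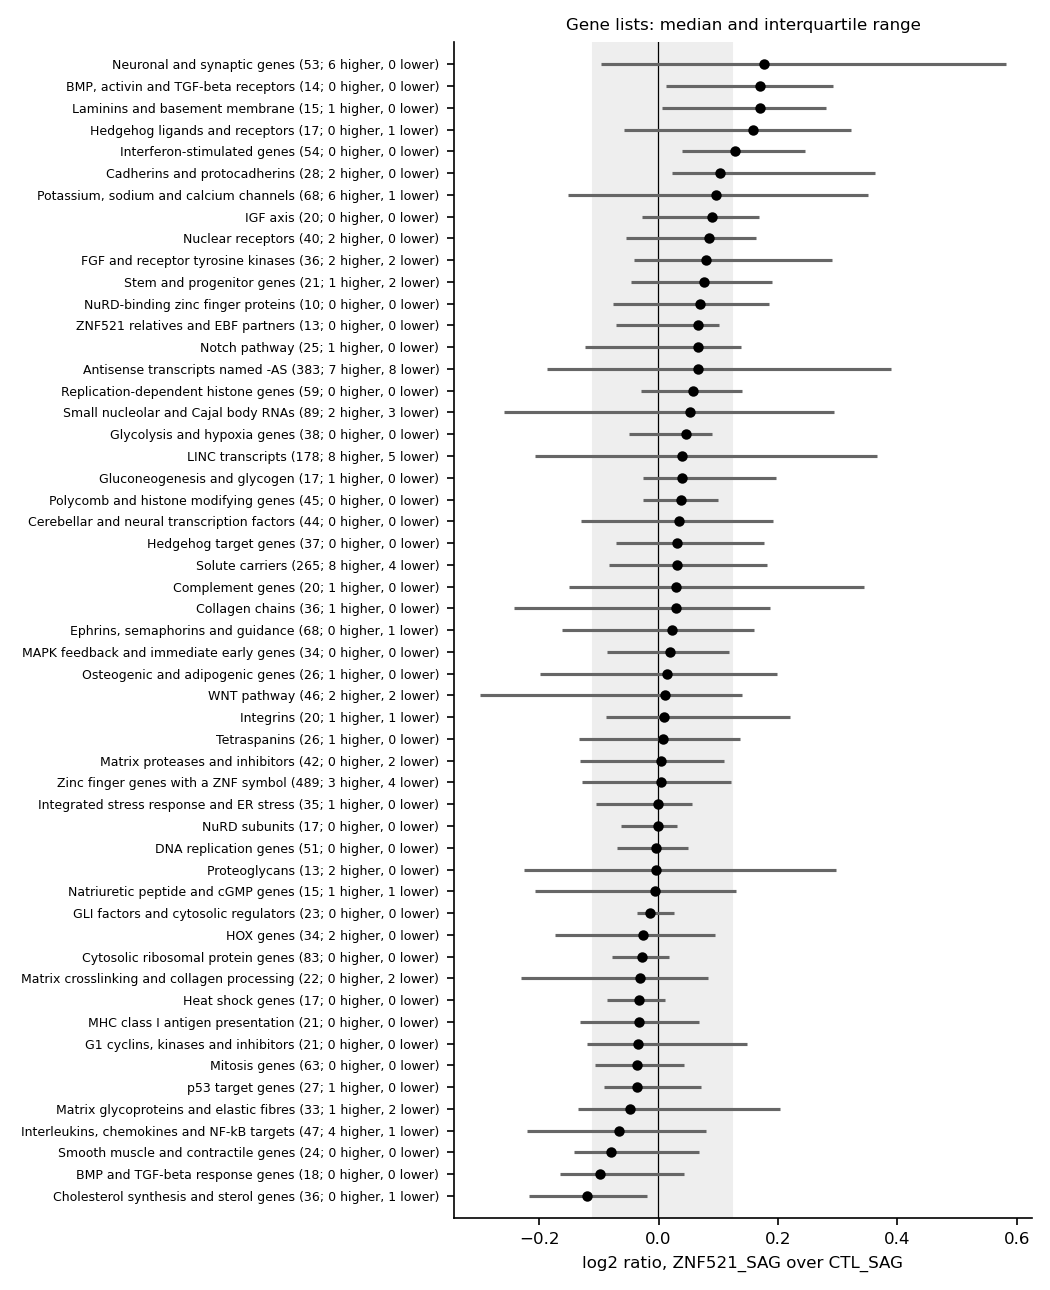
Median log2 ratio of ZNF521_SAG over CTL_SAG (points) and interquartile range (lines) for each gene list with at least 10 examined genes, with the number of genes and of calls in each direction beside the name. The vertical line and the grey band mark the median and interquartile range of all genes, and list medians run from -0.12 to 0.18.

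No gene was called in several growth and housekeeping families, namely among 51 of DNA replication (median -0.004), 63 of mitosis (-0.035), 83 cytosolic ribosomal proteins (-0.028), 45 polycomb and histone modifying genes (0.037), 38 of glycolysis and hypoxia (0.045) or 59 replication-dependent histones (0.058). Over all genes 2.54% were called, and smaller differences were present in these families. The interval excluded 1 on the lower side in 34 of the 83 ribosomal protein genes, against 10.2% of all genes, and on the higher side in 19 of the 59 histone genes, against 9.51%. Both ZNF521 libraries lay above both controls in 39 of the histone genes and 18 of the ribosomal protein genes, against 13.7% of all genes. MCM7 (0.00), TOP2A (0.02), CCNB1 (-0.02) and GAPDH (0.04), a helicase subunit, a topoisomerase, a mitotic cyclin and a glycolytic enzyme, had log2 ratios near 0, on at least 6979 raw counts each. In the DMSO pair the medians were 0.73 for the histone genes and 0.32 for the ribosomal protein genes, and in abundant members such as HIST1H1C and RPS18 CTL_DMSO was the lowest library. In all, 21 of the 53 lists had no member called.

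Of transcripts outside these pathways, 265 solute carriers gave 8 calls higher and 4 lower, 383 transcripts named as antisense 7 and 8, 178 LINC transcripts 8 and 5, 89 small nucleolar and Cajal body RNAs 2 and 3, and 489 genes with a ZNF symbol 3 and 4, where 1.38% of all genes were called higher and 1.16% lower, and 7.74% of those with a mean below 50 in either direction. Among HOX genes HOXB4 (0.76) and HOXD11 (0.63) were called higher of 34. ZNF469, a zinc finger gene, had 57.3, 31.6, 13.4 and 13.5 normalized counts in CTL_DMSO, CTL_SAG, ZNF521_DMSO and ZNF521_SAG (-1.23, -2.21 to -0.29). The libraries were strand specific but the strand setting of the counting is not given, so that antisense transcripts and overlapping genes may hold reads of their partners. By annotation, 2.40% of 13977 protein-coding genes and 4.38% of 730 long non-coding genes were called, and the median of their mean levels was 381 and 25.6 normalized counts.

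The DMSO pair, which shares no library with the SAG pair, was set beside it to see which differences were met again without SAG. Across all genes the pairs had little in common: over 11908 genes whose mean reached 50 in each, Spearman's correlation of the log2 ratios was 0.027, given as a description since genes are not replicates. Of genes higher in the SAG pair at any size, 52.8% were higher in the DMSO pair, and of those lower, 47.5% were lower. The called genes had more in common. Of 191 called higher and examined in both, 119 (62.3%) were higher in the DMSO pair and 32 (16.8%) were called higher there, which is 4.27% of that pair's calls, and 6 were called lower. Of 166 called lower, 112 (67.5%) were lower and 47 (28.3%) were called lower, 5.11% of that pair's calls, and 8 were called higher. Over all 14847 genes examined in both, 52.7% were higher and 47.3% lower in the DMSO pair. There 5.04% of them were called higher and 6.2% lower. With a mean of at least 50 in each pair, 49 of 76 (64.5%) and 47 of 59 (79.7%) had the same sign.

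In the order of the 4 libraries, 115 of the 209 genes called higher (55.0%) had both ZNF521 libraries above both controls, and 103 of the 176 called lower (58.5%) had both below. Over all 15140 genes these orders were met in 13.7% and 13%. A call asks for a gap between 2 of the 4 libraries and so favours these orders, and the shares are given as a description. In another 49 of the genes called higher and 17 of those called lower, CTL_SAG was at one end and ZNF521_SAG was not at the other. Whatever the order of the rest, CTL_SAG was the lowest library in 170 of the genes called higher. It was the highest in 102 of those called lower. ZNF521_SAG was the highest library in 129 of the genes called higher and the lowest in 131 of those called lower.

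The genes called the same way in both pairs, with a mean of at least 50 in each, numbered 48, of which 20 were higher and 28 lower. By the smaller of their log2 ratios those with the largest values included ZNF521 (1.46 under SAG, 1.5 under DMSO), HSH2D (1.15, 1.03), TSPAN1 (0.98, 1.26), IL2RB (-1.04, -0.94), THBS2 (-0.91, -1.38), NR0B1 (0.88, 1.57), RP1 (-1.22, -0.80), the acid phosphatase ACP5 (-0.77, -0.95) and ASIC3 (-1.16, -0.75). The lower ones also included the retinol transporter STRA6 (-0.67, -0.82) and the corepressor HR (-0.60, -1.12), and the higher ones the GTPase GIMAP6 (0.87, 0.62) and the G protein-coupled receptor GPR132 (0.68, 0.92), picked from the 48 after their values were seen. Matrix genes THBS2, LOXL1, ADAMTS2 and MFAP4 were all in this group, and so were PCSK1, GUCY1A2, ERBB3 and RGS8. Only 5 genes with such levels were called in opposite ways.

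**Figure D5:**
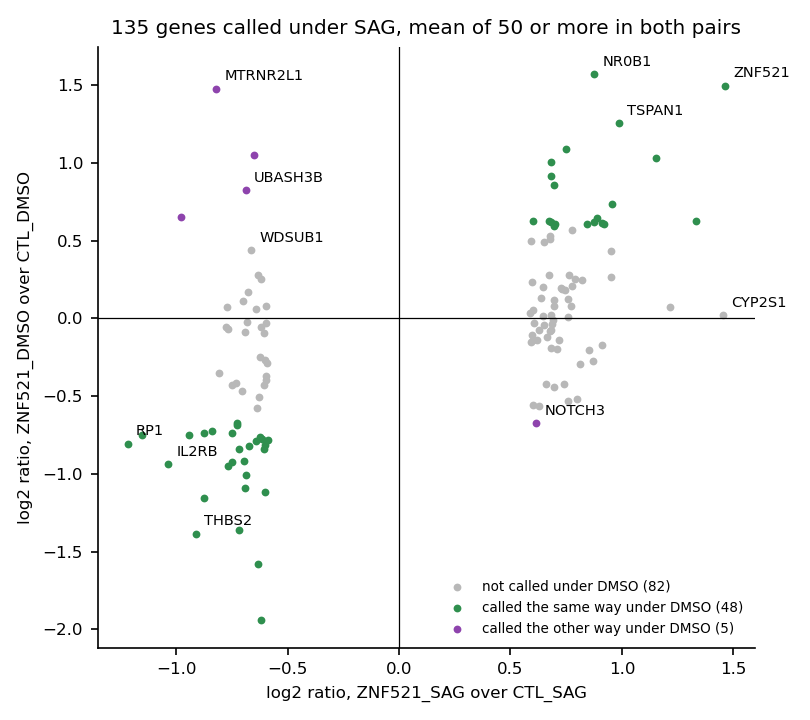
Log2 ratios of ZNF521 over CTL cells under SAG (horizontal axis) and under DMSO (vertical axis) for the 135 genes called under SAG and a mean of 50 or more normalized counts in both pairs, coloured by their call under DMSO. The 48 green genes lie in the quadrants of equal sign, 82 grey genes were not called under DMSO, and the 5 purple genes lie in the quadrants of opposite sign.

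The log2 ratios were also set out by chromosome and by the make-up of transcripts. By chromosome, over the 12027 better covered genes, medians spanned a range of 0.053 in all, from -0.026 on chromosome 9 to 0.027 on chromosome 13. By transcript GC content, the medians of 5 equal groups ran from 0.008 to -0.031 in the SAG pair, the lowest in the group richest in GC, where the DMSO pair ran from 0.288 in the poorest to -0.104 in the richest. The calls in the SAG pair rose with GC content, with 15, 20, 24, 33 and 49 genes called in the groups from the poorest to the richest, each of 2391 or 2392 genes. By transcript length the medians in the SAG pair rose at every step, from -0.039 in the shortest group through -0.022, -0.013 and 0.006 to 0.044 in the longest, a wider span than that of the chromosomes. The part of length and GC content in the results of single genes was not tested beyond the centring on GC content.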

How the data were processed

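The series holds 4 RNA-seq libraries of DAOY cells, 1 per condition, and p-values were not computed. According to the study's methods and processing notes, the authors aligned paired reads to hg38 with STAR 2.7.0e, counted them per gene and divided the counts by median of ratios size factors of DESeq2. The deposited files hold raw counts and these normalized counts, which are a signal scaled by 1 factor per library. The annotation, strand setting and read filters are not given in the sources used here.

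Ratios of normalized counts were computed in Python 3.11.15 with scipy 1.17.1, with exact 95% Clopper-Pearson intervals from the raw counts, checked on simulated data. They cover counting error only and are not corrected for the number of genes. Scaling factors of edgeR 4.0.16 (R 4.3.3), total counts, size factors of the 2 libraries and centring on transcript GC content in 20 groups were alternatives, besides other folds and count filters. Gene positions and types came from GENCODE 44 on hg38, in which 20119 of 20363 genes (98.8%) were found. The genes named in the text are ZNF521 and genes of the Hedgehog pathway, the 15 leading genes in each direction with a mean of at least 50 normalized counts, the abundant called genes, up to 10 called alike and 6 called oppositely in both pairs, and up to 5 called or 3 abundant genes of each of 54 lists. One list, of mitochondrially encoded genes, had 0 examined genes. Other members of the Hedgehog, interferon, sterol, matrix and channel lists were named after their values were seen. Values of a few genes that these rules name are left out. These lists and rules were chosen with earlier results of these data known. The order of the 4 libraries, the count of intervals at any fold and the groups by GC content, length and gene type were added after values were seen. RT-qPCR and tumour cohorts were not analysed here.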

Additional observations from a re-analysis of the deposited data

Results flagged for a closer look

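For 4 genes the ZNF521 cells were called higher than the controls with one treatment and lower with the other, in each case from 1 library per condition, and the difference was not tested. MTRNR2L1, a near copy of mitochondrial ribosomal RNA, had a log2 ratio of ZNF521 over CTL cells of -0.82 under SAG and 1.48 under DMSO, with 43.2 normalized counts in CTL_DMSO, 208.6 in CTL_SAG, 120.4 in ZNF521_DMSO and 118.1 in ZNF521_SAG. UBASH3B, a tyrosine phosphatase, was at -0.69 and 0.83, with 229.2, 523.3, 406.4 and 324.8 normalized counts. The small nucleolar RNA SNORD46 was at -0.65 and 1.05, with 38.2, 91.3, 79.2 and 58.2. NOTCH3 was at 0.62 and -0.67, with 607.1, 228.9, 380.7 and 351.0. In all 4 genes CTL_DMSO, the library that stands apart from the rest, was at one end of the values of the libraries. The part of that library in these differences was not tested.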

How the results depend on the processing

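Scaling by total counts, by size factors of the 2 libraries or by TMM, centring on GC content and dropping the count filter left 209 to 231 genes called higher and 167 to 203 called lower. The counts were 99 and 69 at 2-fold, 627 and 437 at 1.5-fold with no interval, and 109 and 74 with at least 50 raw counts, as these settings ask for more or less. The share of called genes with the same sign in the DMSO pair was 64.7% of 357 genes, 60.7% to 64.4% under other scalings and at 2-fold, and 70.6% with at least 50 raw counts in each pair. Of the 99 named genes called, 98 remained called under total counts and under size factors of the 2 libraries, where MFAP4 was lost, all 99 under TMM, and all 98 with a GC value after centring. No called gene changed sign, and list medians moved by at most 0.1, except proteoglycans with at least 50 raw counts. The chromosome range was 0.044 to 0.054. Within the SAG pair no paired analysis was possible because each group has 1 library, and leaving out a replicate was not possible for the same reason. The study's methods describe paired t tests between conditions, which were not repeated here. Depth limits scarce genes most: the log2 ratio of SHH, on 13 and 5 raw counts, has an interval from -3.64 to -0.22.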
